A study of Mus musculus with 8 samples.

Results

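The genes described here encode 10 enzymes of branched-chain amino acid catabolism: *Bcat2*, *Bckdha*, *Bckdhb*, *Dbt*, *Ivd*, *Mccc1*, *Mccc2*, *Hibadh*, *Pcca* and *Pccb*. They were taken by name, not by their values, from the 18820 genes measured on arrays of mouse epididymal white adipose tissue, the visceral fat beside the testis, and all 10 were measured. The samples came from male mice on a C57BL/6 background, 4 wild-type (WT) and 4 *Sucnr1*-/-, which lack the receptor for extracellular succinate in every cell because a cassette with *lacZ* replaced most of its coding part. Both genotypes were littermate offspring of heterozygous parents. All 8 mice ate a low-fat diet (LFD) for 16 weeks, from an age of 8 to 10 weeks in the labels, and their tissue was taken at 24 to 26 weeks. One Affymetrix whole-transcript array was run per mouse, and values are log2 expression, compared between mice for the same gene and not between genes.

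Leucine, isoleucine and valine share the opening steps of their breakdown. The mitochondrial transaminase BCAT2 turns them into keto acids, and the branched-chain keto acid dehydrogenase complex then commits these to oxidation. Separate branches follow in the mitochondrial matrix. Leucine carbon ends as ketone bodies and acetyl-CoA, while valine and part of isoleucine reach propionyl-CoA, which is carboxylated and rearranged to succinyl-CoA, the precursor of succinate in the TCA cycle. Adipocytes raise these enzymes as they differentiate, and fat is known as a site of branched-chain amino acid oxidation.

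No difference between genotypes in the 10 genes passed the threshold of the test. Of the 10, 7 had a higher and 3 a lower mean in *Sucnr1*-/- mice, and 0 passed limma at an adjusted p under 0.05, as for 0% of all 18820 genes. The lowest adjusted p of the 10 was 0.712, for *Mccc1*. Over all genes the smallest was 0.321, that of *Sucnr1*, the targeted gene, at a log2 difference of −3.05. The threshold thus missed even this known difference, and not passing does not show that the 10 genes were unchanged. At an unadjusted p under 0.05, 1 of the 10 was higher (*Mccc1*) and 0 were lower, against 3.46% higher and 3.36% lower among all genes. Groups did not overlap for 1 of the 10, again *Mccc1*, against 2.37% of all genes with all *Sucnr1*-/- mice above and 1.87% with all of them below. The median log2 difference of the 10 genes, *Sucnr1*-/- minus WT, was 0.10, beside 0.01 over all genes. It was 0.14 with each array centred on its median, a scaling that moved the median of all genes to 0.05, and −0.03 without WT replicate 1. Among all genes the split at an unadjusted p under 0.05 was 652 higher and 632 lower, but 1352 and 330 after median centring. With 1 mouse left out, the count of the 10 at an unadjusted p under 0.05 was 3 without WT replicate 1 (2.87% of all genes higher, 2.75% lower). It was 0 without *Sucnr1*-/- replicate 2, 3 or 4 (2.34% to 2.91% of all genes higher, 1.96% to 2.52% lower). Groups did not overlap for 3 of the 10 without WT replicate 1 (1 with *Sucnr1*-/- mice above and 2 with them below), where 3.72% of all genes lay above and 3.23% below. They did not overlap for 2 without *Sucnr1*-/- replicate 1 (*Mccc1* and *Pccb*, both above), where 5.47% of all genes lay above and 5.13% below.

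WT replicate 1 stood apart for these genes, though not for these alone. It had the lowest value of all 8 mice for 9 of the 10, the exception being *Bcat2*, while 24.2% of all genes were lowest in this mouse. So were 16 of 16 TCA cycle genes, 11 of 12 other enzymes of the pathway and 3 of 3 other biotin carboxylases. The same held for 11 of 12 adipocyte markers, 5 of 7 regulators and cofactor enzymes and 2 of 6 transporters. Relative to each gene's mean over the 8 mice, the median of the 10 genes was −0.37 in WT replicate 1 and lay between 0.03 and 0.10 in the other 7 mice. Adipocyte markers (12 of 15 listed were measured) were also lowest in this mouse, with a mean of −0.20 against −0.06 to 0.09 in the others. Its macrophage markers (15 of 15 measured) were the highest, at 0.51 against −0.36 to 0.24. Its B cell markers (6 of 7 measured) were at 1.72 against −1.04 to 0.49, and its immediate early genes (13 of 13), which respond to handling, at 0.81 against −0.54 to 0.56. The part of these differences in the values of the enzyme genes was not tested. In bulk tissue fewer adipocytes and less RNA per adipocyte cannot be told apart.

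**Figure D1:**
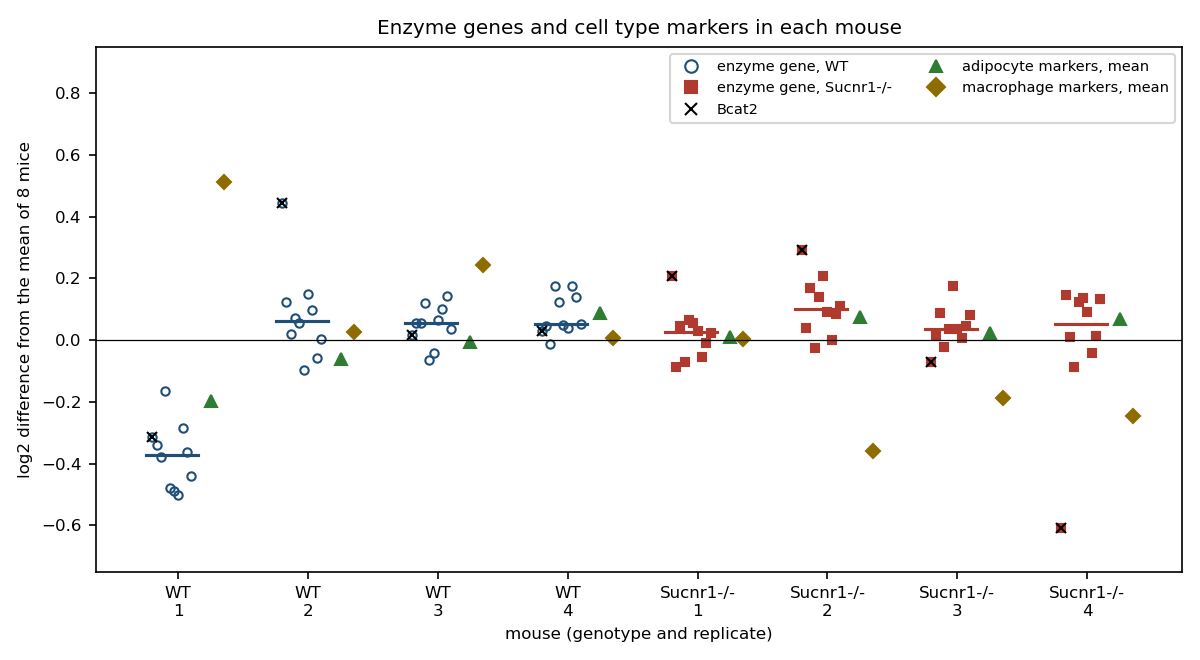
Log2 difference from the mean of all 8 mice (vertical axis) for each mouse (horizontal axis). Circles are the enzyme genes in WT and squares in *Sucnr1*-/- mice, horizontal bars their median, crosses mark *Bcat2*, triangles the mean of the adipocyte markers and diamonds that of the macrophage markers. In WT replicate 1 all 10 genes lie below 0, with a median of −0.37, while *Bcat2* is spread from −0.61 to 0.44 over the mice.

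The labelled tissue was checked by markers, on arrays whose values ran from 2.57 to 14.5. *Adipoq*, an adipocyte hormone, lay between 13.17 and 13.35 in the 8 mice, and *Ucp1*, which defines brown and beige fat, between 3.88 and 4.36. Of the brown and beige markers (6 of 6 listed were measured), *Cox8b* lay at 9.89 to 10.45, *Ppargc1a* at 6.75 to 8.36 and *Cidea* at 6.59 to 7.31, and 5 of the 6 markers had a lower mean in *Sucnr1*-/- mice (median difference −0.10, none passing). Epididymis markers (5 of 6 measured) stayed at or below 5.96. That highest value was *Lcn8* in WT replicate 2, against 4.39 to 4.65 in the other mice. The mean score of the list was 0.41 in WT replicate 2, against −0.17 to 0.02 in the others. *Sucnr1* itself was log2 8.68, 8.97, 9.38 and 9.78 in WT replicates 1 to 4 and 6.02, 6.05, 5.41 and 7.11 in *Sucnr1*-/- replicates 1 to 4, so all *Sucnr1*-/- mice lay below all WT mice. Its difference was −3.05 (SE 0.36), with an exact permutation p of 0.0286, the smallest that 4 against 4 can give, and a limma adjusted p of 0.321. The macrophage marker *Adgre1* was at 10.07 to 10.70 in WT and 9.59 to 9.94 in *Sucnr1*-/- mice. Macrophage markers as a list had a median difference of −0.42, with 14 of 15 lower, and mean scores of 0.01 to 0.51 in WT and −0.36 to 0.01 in *Sucnr1*-/- mice. Adipocyte markers had a median difference of 0.06, with 11 of 12 higher. Without WT replicate 1 the macrophage median was −0.25, with 14 of 15 lower, and the adipocyte median 0.02, with 8 of 12 higher. The part of either list in the differences of the enzyme genes was not tested.

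*Bcat2*, the transaminase that starts the pathway, varied most between mice. It was at log2 10.73, 11.49, 11.06 and 11.07 in WT replicates 1 to 4 and 11.25, 11.34, 10.97 and 10.44 in *Sucnr1*-/- replicates 1 to 4. The groups overlapped throughout, with the highest value in WT replicate 2 and the lowest in *Sucnr1*-/- replicate 4. Its means were 11.09 ± 0.31 (SD, n = 4) for WT and, for *Sucnr1*-/- mice, 11.00 ± 0.41 (SD, n = 4), the largest SD of the 10 genes in both genotypes. The difference was −0.09 (SE 0.22, 95% interval −0.59 to 0.41; limma, adjusted p = 0.923). It turned positive without *Sucnr1*-/- replicate 4 (0.10) and without WT replicate 2 (0.04). *Bcat1*, the cytosolic form of the enzyme, differed by −0.41 (SE 0.32), or −0.12 without WT replicate 1, and was highest in WT replicate 1, at 9.01, against 7.31 to 8.33 in the other WT mice and 7.51 to 8.13 in *Sucnr1*-/- mice. It was the only measured gene among the 12 other enzymes with a lower mean in *Sucnr1*-/- mice.

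The dehydrogenase complex is built from the decarboxylase chains BCKDHA and BCKDHB, the acyltransferase core DBT and the dihydrolipoamide dehydrogenase DLD. *Bckdha* was at log2 10.01, 10.47, 10.40 and 10.39 in WT replicates 1 to 4 and 10.26, 10.38, 10.36 and 10.49 in *Sucnr1*-/- replicates 1 to 4. *Bckdhb* was at log2 10.47, 10.87, 10.90 and 10.83 in WT replicates 1 to 4 and 10.89, 11.02, 10.94 and 10.86 in *Sucnr1*-/- replicates 1 to 4. WT replicate 1 was the lowest mouse for both. Of the *Sucnr1*-/- mice, 3 lay below WT replicates 2 to 4 for *Bckdha*, whereas 2 lay within the WT range and 2 above it for *Bckdhb*. The differences were 0.06 (SE 0.11, 95% interval −0.19 to 0.30; limma, adjusted p = 0.896) for *Bckdha* and 0.16 (SE 0.10, 95% interval −0.07 to 0.39; limma, adjusted p = 0.743) for *Bckdhb*. With arrays centred on their medians the *Bckdhb* groups no longer overlapped, at a difference of 0.20. *Dbt* was at log2 11.06, 11.30, 11.35 and 11.40 in WT replicates 1 to 4 and 11.16, 11.20, 11.20 and 11.14 in *Sucnr1*-/- replicates 1 to 4. Its *Sucnr1*-/- mice lay between 11.14 and 11.20, below WT replicates 2 to 4 and above WT replicate 1. The difference of *Dbt* was −0.10 (SE 0.08, 95% interval −0.28 to 0.08; limma, adjusted p = 0.769). *Dld*, which also serves the pyruvate and 2-oxoglutarate dehydrogenases, was at log2 9.90, 10.19, 10.19 and 10.17 in WT replicates 1 to 4 and 10.24, 10.46, 10.42 and 10.30 in *Sucnr1*-/- replicates 1 to 4. Here all *Sucnr1*-/- mice lay above all WT mice, and the difference was 0.24 (SE 0.09, 95% interval 0.04 to 0.45; limma, adjusted p = 0.712).

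The complex is switched off when the kinase BCKDK phosphorylates its decarboxylase and switched on again by the phosphatase PPM1K. *Bckdk* differed by 0.06 (SE 0.08) and *Ppm1k* by −0.05 (SE 0.09), neither passing, and the groups overlapped for both genes. *Klf15*, a transcription factor known to raise amino acid catabolism, was at log2 8.19, 9.05, 8.94 and 8.95 in WT replicates 1 to 4 and 8.70, 9.23, 9.28 and 9.45 in *Sucnr1*-/- replicates 1 to 4. Of its *Sucnr1*-/- values 3 lay above all WT mice, but *Sucnr1*-/- replicate 1 lay below WT replicates 2 to 4. Its difference was 0.38 (SE 0.22, 95% interval −0.12 to 0.88; limma, adjusted p = 0.732). It was 0.19 without WT replicate 1, 0.54 without *Sucnr1*-/- replicate 1, and 0.17 with the mean immediate early gene score as a covariate.

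In the leucine branch, isovaleryl-CoA dehydrogenase (*Ivd*) forms 3-methylcrotonyl-CoA, which the biotin enzyme 3-methylcrotonyl-CoA carboxylase, made of the biotin-carrying chain MCCC1 and the partner chain MCCC2, carries further. *Ivd* was at log2 10.50, 11.03, 10.91 and 11.10 in WT replicates 1 to 4 and 11.04, 11.12, 11.01 and 11.10 in *Sucnr1*-/- replicates 1 to 4. The *Sucnr1*-/- mice stood close to WT replicates 2 and 4, and the difference was 0.18 (SE 0.12, 95% interval −0.10 to 0.47; limma, adjusted p = 0.751). *Mccc1* was at log2 9.26, 9.65, 9.71 and 9.80 in WT replicates 1 to 4 and 9.80, 9.96, 9.92 and 9.89 in *Sucnr1*-/- replicates 1 to 4. It was the only 1 of the 10 genes with every *Sucnr1*-/- mouse above every WT mouse, although the highest WT value (9.797, replicate 4) came close to the lowest *Sucnr1*-/- value (9.804, replicate 1). The means were 9.60 ± 0.24 (SD, n = 4) for WT and, for *Sucnr1*-/- mice, 9.89 ± 0.07 (SD, n = 4), a ratio of 1.22. The difference was 0.29 (SE 0.11, 95% interval 0.03 to 0.55; limma, adjusted p = 0.712), with an exact permutation p of 0.0286, the smallest possible here. Without WT replicate 1 it was 0.17 (SE 0.07; limma, adjusted p = 0.852), and the groups still did not overlap. *Mccc2* was at log2 9.60, 10.25, 10.17 and 10.15 in WT replicates 1 to 4 and 10.13, 10.20, 10.14 and 10.20 in *Sucnr1*-/- replicates 1 to 4, with a difference of 0.12 (SE 0.13, 95% interval −0.18 to 0.43; limma, adjusted p = 0.815). Apart from WT replicate 1, all mice lay between 10.13 and 10.25 for *Mccc2*, and without that mouse its difference was −0.02. *Auh*, which hydrates the carboxylase product, differed by 0.15 (SE 0.10), or 0.07 without WT replicate 1.

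**Figure D2:**
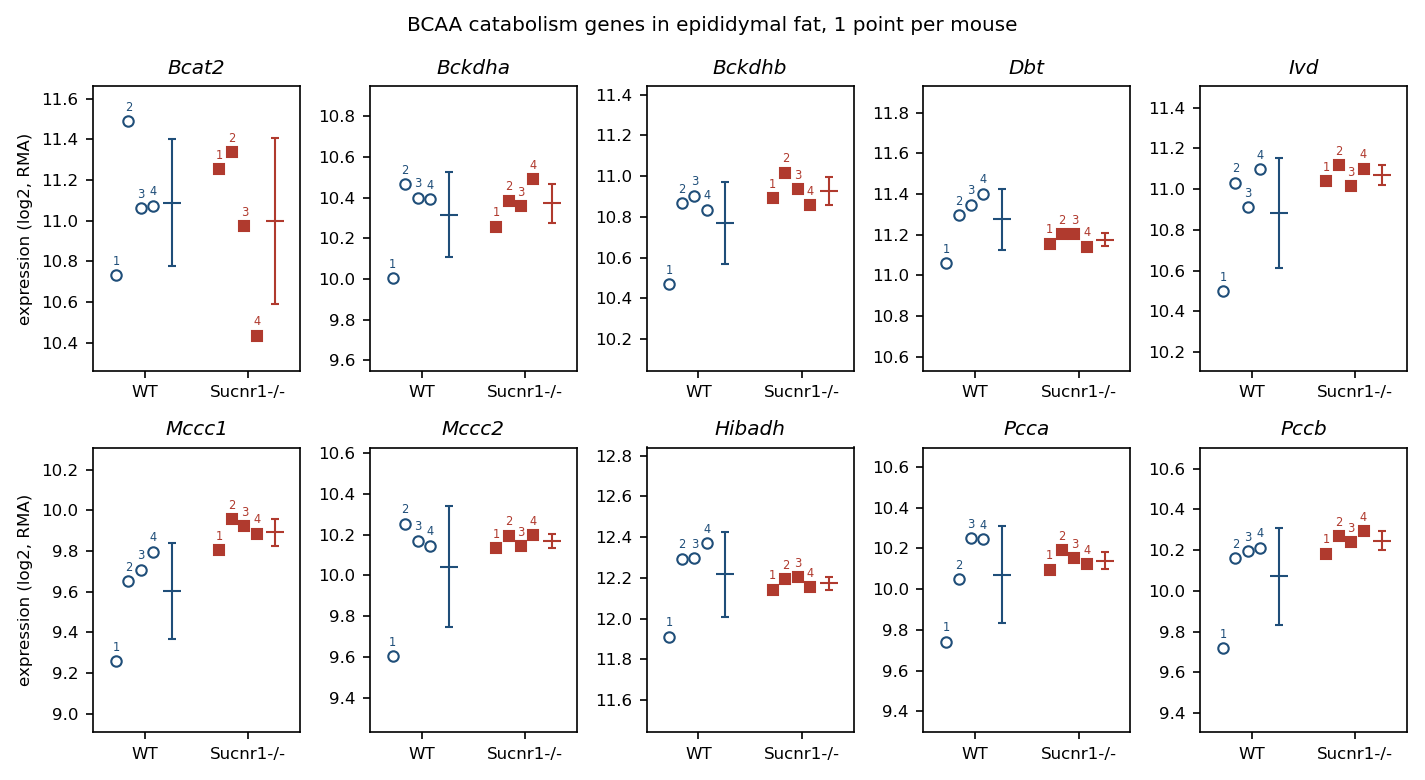
Log2 expression (RMA, vertical axis, equal span in each panel) of the 10 enzyme genes, with a point for each mouse (open circles WT, filled squares *Sucnr1*-/-) under its replicate number, and the mean and SD of 4 mice at the right of each group. Only for *Mccc1* are all *Sucnr1*-/- mice above all WT mice, and WT replicate 1 is the lowest point in each panel other than *Bcat2*.

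Promoter sequences of the leucine branch are shown, with *Bcat2* beside them as the gene that varied differently between mice. In this branch the groups overlapped for *Mccc2* and *Ivd* but not for *Mccc1*, the only 1 of the 10 genes without overlap. Among all genes 2.37% lay above and 1.87% below without overlap. The gap of *Mccc1* was narrow, and its difference did not pass after adjustment. Of the 10 genes, 9 matched the RefSeq promoter table (build GRCm38.p6), with 12 windows of 250 bases before a start site, and the 120 bases just before the start are printed 5′ to 3′ on the gene's own strand. Capitals mark the CCAAT box (CCAAT or ATTGG) and the GC box (GGGCGG or CCGCCC).
Mccc1 (chr3:36000679-36000798, minus strand): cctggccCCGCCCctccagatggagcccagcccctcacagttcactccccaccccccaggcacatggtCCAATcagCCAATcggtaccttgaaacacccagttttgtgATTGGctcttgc
Mccc2 (chr13:100015640-100015759, minus strand): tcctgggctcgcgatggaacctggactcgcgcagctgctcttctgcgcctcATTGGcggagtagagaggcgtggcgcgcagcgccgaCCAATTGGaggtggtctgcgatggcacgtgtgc
Ivd (chr2:118861874-118861993, plus strand): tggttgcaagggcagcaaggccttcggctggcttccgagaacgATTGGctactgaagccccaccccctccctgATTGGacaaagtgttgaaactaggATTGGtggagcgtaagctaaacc
Bcat2 (chr7:45570033-45570152, plus strand): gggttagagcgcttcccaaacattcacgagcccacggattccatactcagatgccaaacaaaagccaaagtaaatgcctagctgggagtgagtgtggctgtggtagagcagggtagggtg
All 3 leucine-branch stretches hold CCAAT boxes, with an overlapping pair in *Mccc2*, and that of *Mccc1* also holds a GC box, while that of *Bcat2* holds neither. A further window of *Bcat2*, not printed, holds neither as well. Searched on both strands of the 250 bases, a CCAAT box was found in 7 of 12 windows, belonging to 6 genes, against 33.8% of all 32851 promoters. A GC box was found in 4 of 12 (*Bckdhb*, *Hibadh*, *Mccc1* and *Pcca*), against 32.7%. Of these genes, *Bckdhb*, *Hibadh* and *Pcca* had overlapping groups, and a link between either box and the genotype was not tested. TGCGCATGC, the core bound by NRF1, was found for *Pccb* (1.28% of all promoters), and neither TCAAGGTCA, bound by the ERR receptors, nor TTGCGCAA, bound by C/EBP factors, in any window (0.387% and 0.164% of all promoters). These letters describe the windows only, and binding was not measured.

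In the valine branch *Hibadh*, 3-hydroxyisobutyrate dehydrogenase, was at log2 11.91, 12.29, 12.30 and 12.37 in WT replicates 1 to 4 and 12.14, 12.19, 12.20 and 12.15 in *Sucnr1*-/- replicates 1 to 4. The *Sucnr1*-/- mice lay between 12.14 and 12.20, below WT replicates 2 to 4 and above WT replicate 1. The difference was −0.05 (SE 0.10, 95% interval −0.27 to 0.18; limma, adjusted p = 0.915). The array holds 3 probe sets for *Hibadh*, and those not used lay between 3.76 and 4.62 in all mice. At these low levels they differed by −0.06 and 0.31, the latter opposite in sign to the probe set used. Of the enzymes around *Hibadh*, *Echs1*, which also works in fat oxidation, differed by 0.24 (SE 0.13), with *Sucnr1*-/- mice at 11.14 to 11.41 and WT mice at 10.61 to 11.19. Without WT replicate 1 its difference was 0.11.

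Propionyl-CoA carboxylase consists of the biotin-carrying chain PCCA and the carboxyltransferase chain PCCB. *Pcca* was at log2 9.74, 10.05, 10.25 and 10.25 in WT replicates 1 to 4 and 10.10, 10.19, 10.15 and 10.12 in *Sucnr1*-/- replicates 1 to 4. *Pccb* was at log2 9.72, 10.16, 10.19 and 10.21 in WT replicates 1 to 4 and 10.18, 10.27, 10.24 and 10.29 in *Sucnr1*-/- replicates 1 to 4. For *Pcca* WT replicates 3 and 4 were above every *Sucnr1*-/- mouse, whereas for *Pccb* 3 of 4 *Sucnr1*-/- mice were above every WT mouse. The differences were 0.07 (SE 0.11, 95% interval −0.19 to 0.32; limma, adjusted p = 0.879) for *Pcca* and 0.17 (SE 0.11, 95% interval −0.08 to 0.43; limma, adjusted p = 0.743) for *Pccb*. *Mcee*, the epimerase of the next step, had its *Sucnr1*-/- mice at 11.81 to 11.99 and its WT mice at 11.55 to 11.81, a difference of 0.17 (SE 0.08, 95% interval −0.0021 to 0.35; limma, adjusted p = 0.719). *Mmut* and its cobalamin partners *Mmaa* and *Mmab*, which complete the way to succinyl-CoA, differed by 0.02 (SE 0.09), 0.11 (SE 0.08) and 0.05 (SE 0.10).

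Whether partner genes differed unequally between genotypes was asked for 5 pairs, as the log2 difference between both genes within each mouse. The level of this difference depends on the probes, so that only its difference between genotypes can be read. *Mccc1* minus *Mccc2* was −0.34, −0.60, −0.46 and −0.35 in WT replicates 1 to 4 and −0.33, −0.24, −0.22 and −0.31 in *Sucnr1*-/- replicates 1 to 4. It was higher in all *Sucnr1*-/- mice than in all WT mice, by 0.16 (SE 0.07; exact two-sided permutation p = 0.0286, adjusted p = 0.143 over the 5 pairs), which did not pass. With 4 against 4 mice, 0.0286 is the smallest exact permutation p possible. A pair that alone reached it could not pass after adjustment over the 5 pairs, so that outcome decides nothing. WT replicate 1 was the highest WT mouse here, and leaving out any 1 mouse gave 0.11 to 0.20. *Pcca* minus *Pccb* differed by −0.11 (SE 0.04; exact permutation p = 0.114, adjusted p = 0.190). *Bckdha* minus *Dbt* differed by 0.16 (SE 0.07; exact permutation p = 0.0857, adjusted p = 0.190) and *Bckdha* minus *Bckdhb* by −0.10 (SE 0.07; exact permutation p = 0.200, adjusted p = 0.250). The kinase minus the phosphatase, *Bckdk* minus *Ppm1k*, differed by 0.11 (SE 0.10; exact permutation p = 0.314, adjusted p = 0.314).

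**Figure D3:**
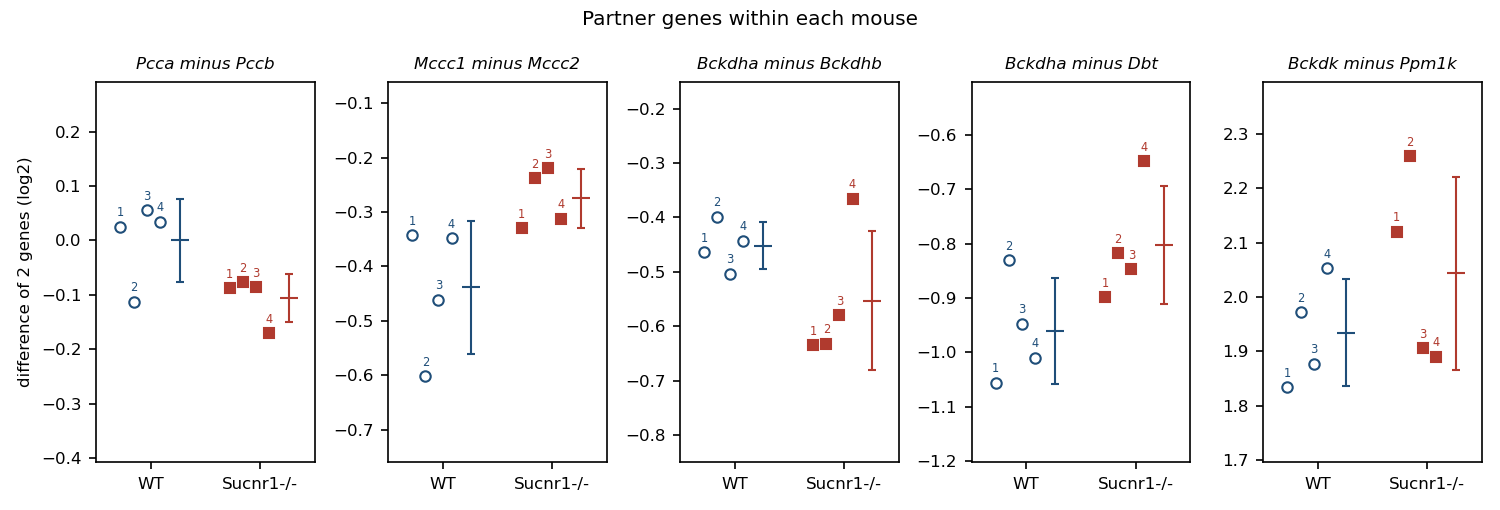
Log2 expression of 1 gene minus that of its partner within each mouse (vertical axis), open circles for WT and filled squares for *Sucnr1*-/-, numbered by replicate, with the mean and SD of 4 mice at the right of each group. For *Mccc1* minus *Mccc2* all *Sucnr1*-/- mice are above all WT mice, and the groups overlap in the other panels.

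Along the rest of the pathway, 11 of 12 other measured enzymes had a higher mean in *Sucnr1*-/- mice (median difference 0.10), 5 of 7 regulators and cofactor enzymes (0.05) and 2 of 6 transporters (−0.05), beside 53.2% of all genes. The adjusted threshold of 0.05 in limma was passed by 0 of them, and at an unadjusted p under 0.05 *Dld* and *Slc43a1* were higher. *Slc43a1*, a transporter of large neutral amino acids, was at log2 9.76, 10.09, 10.05 and 10.18 in WT replicates 1 to 4 and 10.09, 10.40, 10.35 and 10.34 in *Sucnr1*-/- replicates 1 to 4. Only *Sucnr1*-/- replicate 1 fell inside the WT range, and the difference was 0.28 (SE 0.11, 95% interval 0.04 to 0.52; limma, adjusted p = 0.712). *Slc25a44*, the mitochondrial carrier of branched-chain amino acids, differed by −0.03 (SE 0.10). *Slc7a5*, the light chain of the exchanger that brings them into cells, differed by −0.57 (SE 0.42), by −0.26 without WT replicate 1, its highest mouse, by −0.89 without WT replicate 3 and by −0.15 with the immediate early gene covariate. Its heavy chain *Slc3a2* differed by −0.07 (SE 0.07). *Slc7a8*, another light chain, differed by −0.08 (SE 0.19). *Btd*, which recycles biotin, differed by −0.07 (SE 0.12). The other biotin carboxylases of the tissue, *Pcx*, *Acaca* and *Acacb*, differed by 0.04 (SE 0.10), −0.17 (SE 0.12) and 0.06 (SE 0.14). Beside these, 16 of 16 measured TCA cycle genes had a higher mean (median 0.11), with *Sdhb* at 0.22 (SE 0.06), *Sucla2* at 0.19 (SE 0.08) and *Suclg1* at 0.19 (SE 0.08). None of the 16 passed after adjustment. At an unadjusted p under 0.05, 3 of 16 were higher (*Dld*, *Sdhb* and *Sucla2*), against 3.46% of all genes. Without WT replicate 1 a higher mean was found for 4 of the 10 enzymes described (median −0.03), 7 of 12 other enzymes (0.02) and 12 of 16 TCA cycle genes (0.06). For regulators it was found for 2 of 7 (−0.03) and for transporters for 2 of 6 (−0.09).

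**Figure D4:**
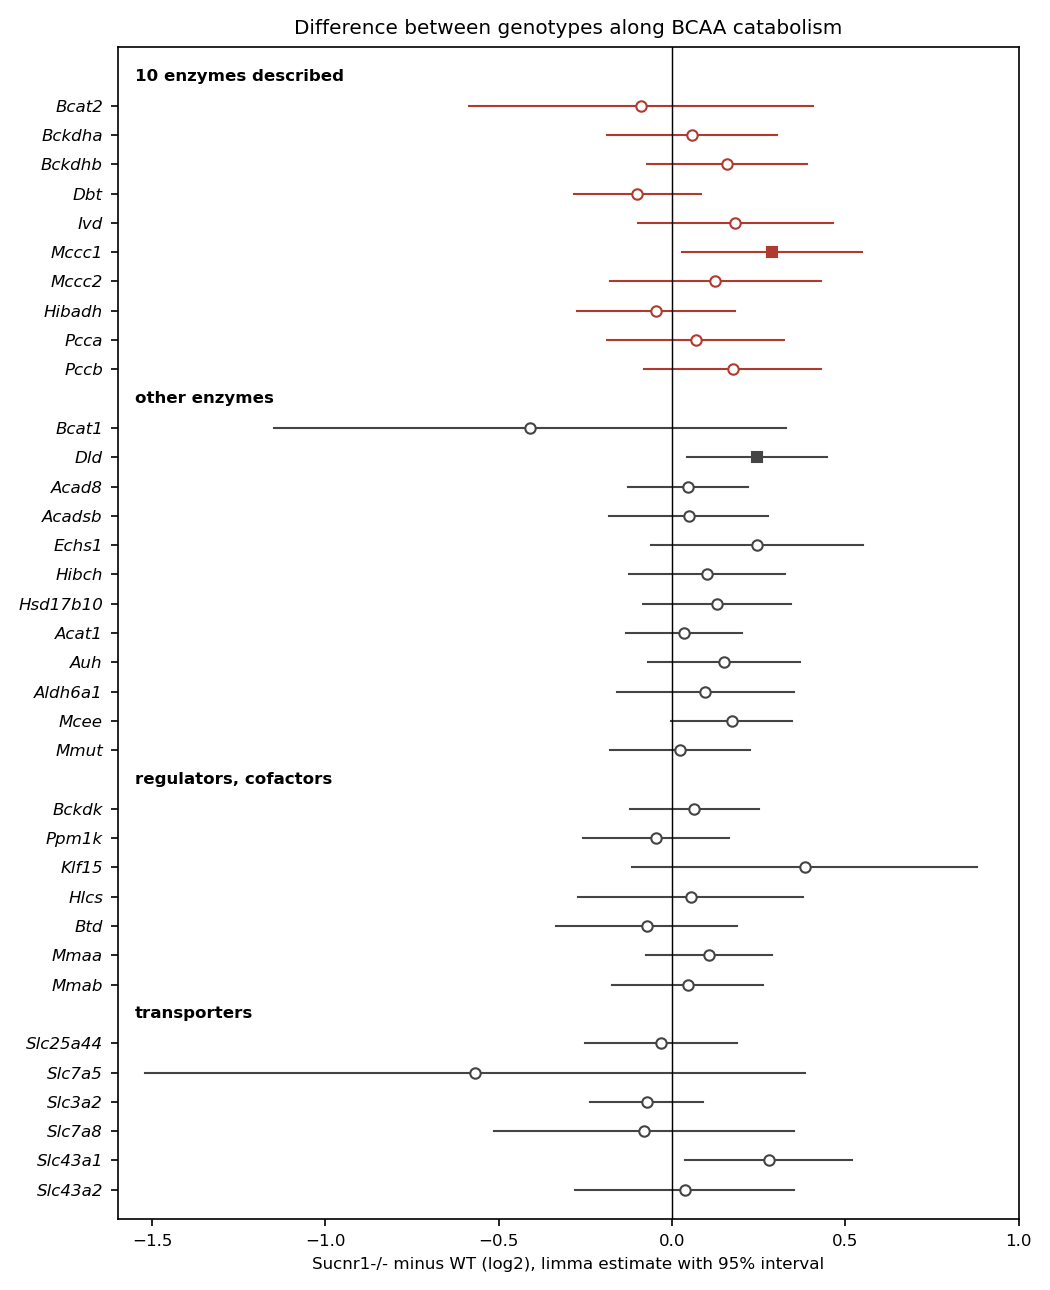
Difference between genotypes (horizontal axis, *Sucnr1*-/- minus WT, log2) for the enzymes, regulators and transporters of the pathway (1 gene per line), with the limma estimate and its 95% interval. Filled squares mark *Mccc1* and *Dld*, whose groups do not overlap, open circles the other genes, and of the intervals, which are not adjusted for the number of genes, those of *Mccc1*, *Dld* and *Slc43a1* alone exclude 0.

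With WT replicate 1 left out, *Dbt* was lower in all *Sucnr1*-/- than in all WT mice, at −0.17 (SE 0.06; limma, adjusted p = 0.852), and so was *Hibadh*, at −0.15 (SE 0.06; limma, adjusted p = 0.852), while *Mccc1* stayed higher. These were the 3 of 10 genes at an unadjusted p under 0.05 and without overlap. The mouse left out had been singled out by the values of these same genes. Among all genes in that comparison 2.87% were higher and 2.75% lower at an unadjusted p under 0.05, and 3.72% and 3.23% were without overlap in these directions. The differences of *Bckdha* (−0.05), *Mccc2* (−0.02) and *Pcca* (−0.04) turned negative, and those of *Bckdhb* (0.06), *Ivd* (0.05) and *Pccb* (0.06) shrank, so that 4 of 10 were higher. Values of *Sucnr1*-/- mice were close together. Their SD was smaller than that of WT mice for 9 of 10 genes (58.3% of all genes), between 0.03 and 0.10 other than for *Bcat2*. It was smaller for 6 of 10 when WT replicate 1 was left out, where the share of all genes was not computed. With all mice it was also smaller for each of the 12 other measured enzymes and for every measured TCA cycle gene except *Mdh2*.

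**Figure D5:**
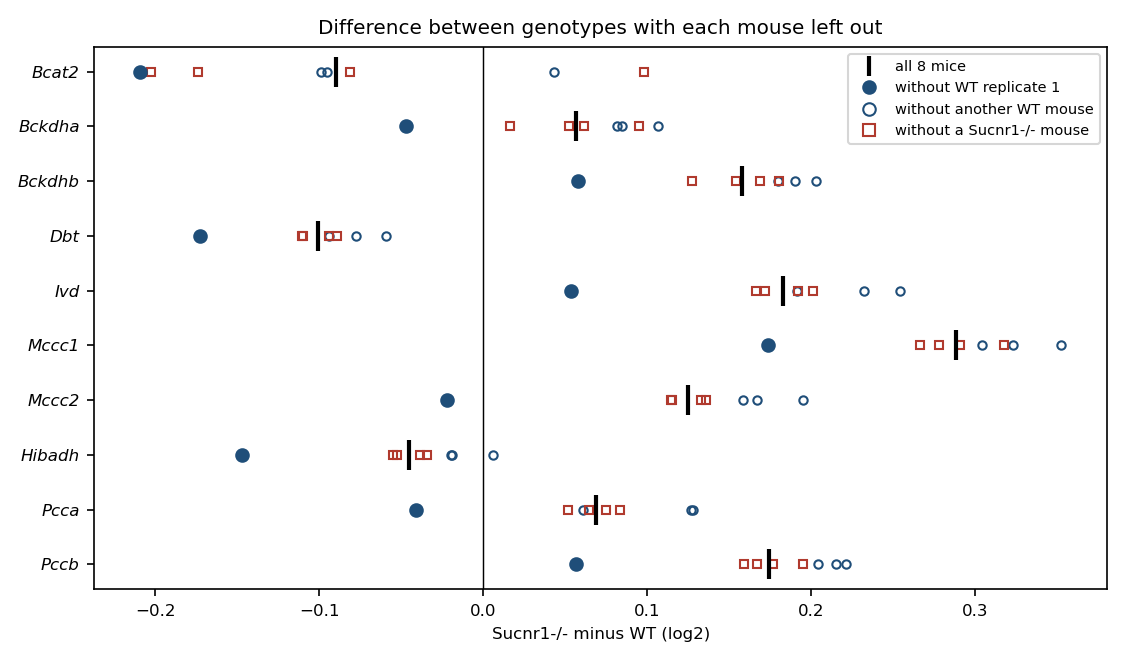
Difference between genotypes (horizontal axis, *Sucnr1*-/- minus WT, log2) of the 10 enzyme genes (rows) with all 8 mice (black bar), without WT replicate 1 (filled circle), without another WT mouse (open circles) and without a *Sucnr1*-/- mouse (open squares). Without WT replicate 1 every difference lies to the left of that with all mice, and *Mccc1* stays at 0.17. This shift is fixed in advance, because that mouse lay below the WT mean for all 10 genes.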

How the data were processed

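Total RNA of epididymal white adipose tissue from 4 WT and 4 *Sucnr1*-/- mice had been hybridised to Affymetrix Mouse Gene 1.1 ST arrays, 1 per mouse. The deposited values were log2 expression per probe set, which the authors had made with RMA (background correction, normalisation between arrays, summary of probes). The RMA version and the genome build were not given in the sources used here. Of 35556 probe sets, 21218 had exactly 1 symbol in the platform annotation, 1881 had several and 12457 had none. Of those with 1 symbol, 21185 matched RefSeq (GRCm38.p6) by Entrez identifier. The brightest probe set by mean over all arrays stood for each of 18820 genes. Array medians lay between 6.28 and 6.36, correlations between arrays between 0.981 and 0.993, and no arrays were identical. The number of arrays limits the precision.

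Groups were compared with limma 3.58.1 (R 4.3.3; lmFit, eBayes) without covariates, with Benjamini-Hochberg adjustment over all 18820 genes, threshold 0.05, checked on simulated data. Single values and partner differences were tested with exact two-sided permutation tests over mice. A mouse's score for a marker list was the mean, over the list's measured genes, of the difference from the gene's mean. The comparison was repeated with median centring or quantile normalisation, with array weights, with a prior that follows intensity, with the methods' t-test, without the dimmest 40% of genes, with probe sets averaged, with blocks by replicate number, with an immediate early gene covariate, without each mouse in turn and without replicate 1 of both groups. The genes named were the 10 enzymes, *Dld*, *Bckdk*, *Ppm1k*, *Bcat1*, *Slc25a44*, *Sucnr1*, and up to 4 genes of smallest p in each further list. *Mmut* and *Mmab* were named beyond that rule, with their values known. The enzymes, lists and tests were chosen with earlier results of these data known. Slide and scan date were not given in the sources used here, so batches were not examined.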

Additional observations from a re-analysis of the deposited data

Results flagged for a closer look

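In WT replicate 1, 5 of the enzyme genes lay far below the other WT mice, with a gap to the nearest mouse that was large for the range of 4 values (Dixon's 95% criterion). *Bckdha* was at 10.01 there against 10.39 to 10.47 in the other WT mice, and *Bckdhb* at 10.47 against 10.83 to 10.90. *Mccc2* was at 9.60 against 10.15 to 10.25. *Hibadh* was at 11.91 against 12.29 to 12.37, and *Pccb* at 9.72 against 10.16 to 10.21. In *Sucnr1*-/- replicate 4 *Pcca* minus *Pccb* was −0.17 against −0.09 to −0.08 in the other *Sucnr1*-/- mice. Chance gives such a gap in about 1 in 20 groups, and 20 groups of enzyme genes and 10 of partner differences were examined. The 5 gaps in WT replicate 1 came from the same mouse and are not independent of each other.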

How the results depend on the processing

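No enzyme gene passed an adjusted p of 0.05 under any of 18 alternatives (lowest adjusted p 0.437). The count of the 10 at an unadjusted p under 0.05 was 0 with the methods' t-test (3.65% of all genes higher, 2.98% lower). It was 0 with the immediate early gene covariate (3.08% and 3.34%) and 2, *Dbt* and *Mccc1*, without replicate 1 of both groups (3.55% and 4.14%). With 1 mouse left out it was 0 to 3 (2.34% to 4.62% and 1.96% to 4.7%), being 0 without *Sucnr1*-/- replicate 2, 3 or 4. Groups did not overlap for 2 of the 10 with median centring, both above (4.94% of all genes above, 0.909% below), for 4 without replicate 1 of both groups, 2 above and 2 below (7.30% and 6.89%), and for 1 to 3 with 1 mouse left out (3.4% to 5.47% and 2.62% to 5.13%). The number with a higher mean was 4 without replicate 1 of both groups and 4 to 8 with 1 mouse left out. The median difference of the 10 then ranged from −0.03 to 0.15. Over all genes the methods' t-test gave 686 higher and 561 lower at an unadjusted p under 0.05 and 0 after adjustment. That test and threshold are the paper's general rule for 2 groups. Its array statistics are described in its supplement, so they need not be the same. The higher genes were 369 with the dimmest 40% left out and 1352, with 330 lower, after median centring. With 1 mouse left out they were 440 to 870 higher and 368 to 885 lower.

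The replicate number was not used as a pairing in the main fit. Same-numbered mice had correlations of 0.45, 0.14, 0.11 and 0.01 for their deviations from the group means. WT replicates 1 and 2 correlated best with their own number, WT replicates 3 and 4 did not. Immediate early gene scores were 0.81 and 0.56 in the replicate 1 mice, against −0.54 to 0.08 in the others. What same-numbered mice shared was not tested. With a replicate block the differences stayed the same and 0 genes were called. At an unadjusted p under 0.05, 809 genes were then higher and 1096 lower, against 652 and 632 without the block.

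No gene passed in any setting, so a sign could turn only for a difference that had not passed. The differences whose sign turned were *Acacb* (−0.017) and *Pcx* (−0.0062) with array weights, *Slc25a44* (0.0084) with median centring and *Hibadh* (0.070) with the mean of its probe sets. With the immediate early gene covariate they were *Bckdha* (−0.031), *Pcca* (−0.0048), *Acacb* (−0.063) and *Pcx* (−0.0057). Without replicate 1 of both groups they were *Bckdha* (−0.0085), *Mccc2* (−0.011), *Pcca* (−0.026), *Acacb* (−0.036) and *Pcx* (−0.058). With 1 mouse left out, differences ranged from −0.21 to 0.10 for *Bcat2*, −0.047 to 0.11 for *Bckdha*, −0.15 to 0.0057 for *Hibadh*, −0.022 to 0.19 for *Mccc2* and −0.041 to 0.13 for *Pcca*. The ranges were −0.0071 to 0.11 for *Bckdk*, −0.10 to 0.0094 for *Ppm1k*, −0.13 to 0.0076 for *Slc25a44*, −0.25 to 0.038 for *Slc7a8*, −0.081 to 0.16 for *Acacb* and −0.051 to 0.11 for *Pcx*. *Mccc1* stayed positive throughout, at 0.17 to 0.35. The cause of these changes was not tested.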
